A study of Homo sapiens with 8 samples.

Results

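The 10 genes described here are the chemokines CXCL1, CXCL2, CXCL3 and CXCL8, the lipocalin LCN2, the NF-κB feedback genes NFKBIA, TNFAIP3 and BIRC3, and the NF-κB subunit genes RELB and NFKB2. They were taken by symbol from a table of 39533 genes, and all 10 symbols were found. RNA was sequenced from HCT116, an established human colorectal cancer line, in a model of tumour self-seeding, in which tumour cells that have left a tumour return to it. There were 3 libraries of self-seeded cells (TSC) taken from the primary tumour, 2 libraries of circulating tumour cells (CTC) taken from blood and 3 libraries of primary tumour cells (PC) taken from the primary tumour. All 3 groups carry the same cell line label, although the title of the series names liver cancer. The host, its age, any treatment, the means by which TSC were told from PC, and whether libraries of a group came from separate animals could not be read from the labels. The p-values therefore measure the spread between these libraries, which may be technical.

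NF-κB is a family of dimeric transcription factors that IκB proteins hold in the cytoplasm until kinases mark the IκB for destruction. Once released, NF-κB switches on its own inhibitors, which closes a feedback loop: NFKBIA encodes IκBα, and TNFAIP3 encodes A20, an enzyme that edits ubiquitin on the signalling complex. The CXC chemokines of this set bind CXCR2 (and CXCL8 also CXCR1) and draw neutrophils, and LCN2 binds iron-carrying siderophores of bacteria and is made by epithelia as well as neutrophils. In colorectal cancer, NF-κB is known as a link between inflammation and tumour growth.

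Total counts were 4578869 to 14717833 in the TSC libraries, 957607 and 10524069 in the CTC libraries, and 10864761 to 19264595 in the PC libraries, so CTC 1 is the shallowest library by a wide margin. Levels below are CPM, reads of a gene relative to the library's total, scaled by TMM. A count of 3 corresponds to 2.99 CPM in CTC 1 and to between 0.156 and 0.668 CPM in the other 7 libraries. Intervals are exact 95% Poisson intervals of 1 library's count and cover counting error only. Epithelial markers were abundant in all 8 libraries, with EPCAM at 472 to 616 CPM in TSC, 568 and 546 CPM in CTC and 391 to 469 CPM in PC, although CDX1, LGALS4 and CLDN7 were listed at 0. The CTC libraries also held blood cell transcripts. The summed level of 22 leukocyte markers was 338 and 162 CPM in CTC, against 14.7 to 23.5 CPM in PC, and that of 7 erythroid markers was 195 and 252 CPM in CTC, against 0.104 to 1.59 CPM in PC. In bulk samples like these, fewer cells of a type and less RNA per cell cannot be told apart.

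Of the 10 genes, 9 had enough reads to test, all but CXCL3. The 10 were chosen with earlier results of these data known, so their counts beside those of all genes are descriptions. LCN2 was higher in TSC than in PC, NFKBIA was higher in CTC than in PC, and no member passed the test between TSC and CTC. Calls rest on edgeR's quasi-likelihood test with a Benjamini-Hochberg adjustment over all 14255 genes tested, and a call needs an adjusted p under 0.05. Between TSC and PC, 1 of 9 members was called, where 0.505% of all genes tested were called. Between CTC and PC it was also 1 of 9, where 3.92% of all genes were called. Between TSC and CTC the count was 0 of 9, where 0.898% of all genes were called. In that last comparison DESeq2 called 1 member, NFKBIA. At an unadjusted p under 0.05 there were 3 of 9 members in TSC against PC, where 10.3% of all genes were, 3 of 9 in CTC against PC (23.6% of all genes) and 2 of 9, NFKBIA and BIRC3, in TSC against CTC (16.7% of all genes).

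Most tested members had a positive log2 fold change against PC in both groups. Of the 9 tested, 7 had a positive log2 fold change in TSC against PC, with a median of 0.47, where 50.7% of all genes were positive with a median of 0.006. In CTC against PC 8 of 9 were positive with a median of 1.03, where 47.4% of all genes were positive with a median of -0.044. Both comparisons use the same 3 PC libraries. As the members were chosen with earlier results of these data known, these counts describe the set and do not test it. In TSC against CTC 3 of 9 were positive with a median of -0.51, where 55.0% of all genes were positive with a median of 0.065. Members whose libraries did not overlap between the groups numbered 2 in TSC against PC (18.9% of all genes did not overlap), 4 in CTC against PC (44.6%) and 4 in TSC against CTC (28.4%). The share in CTC against PC is close to that of all genes.

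**Figure D1:**
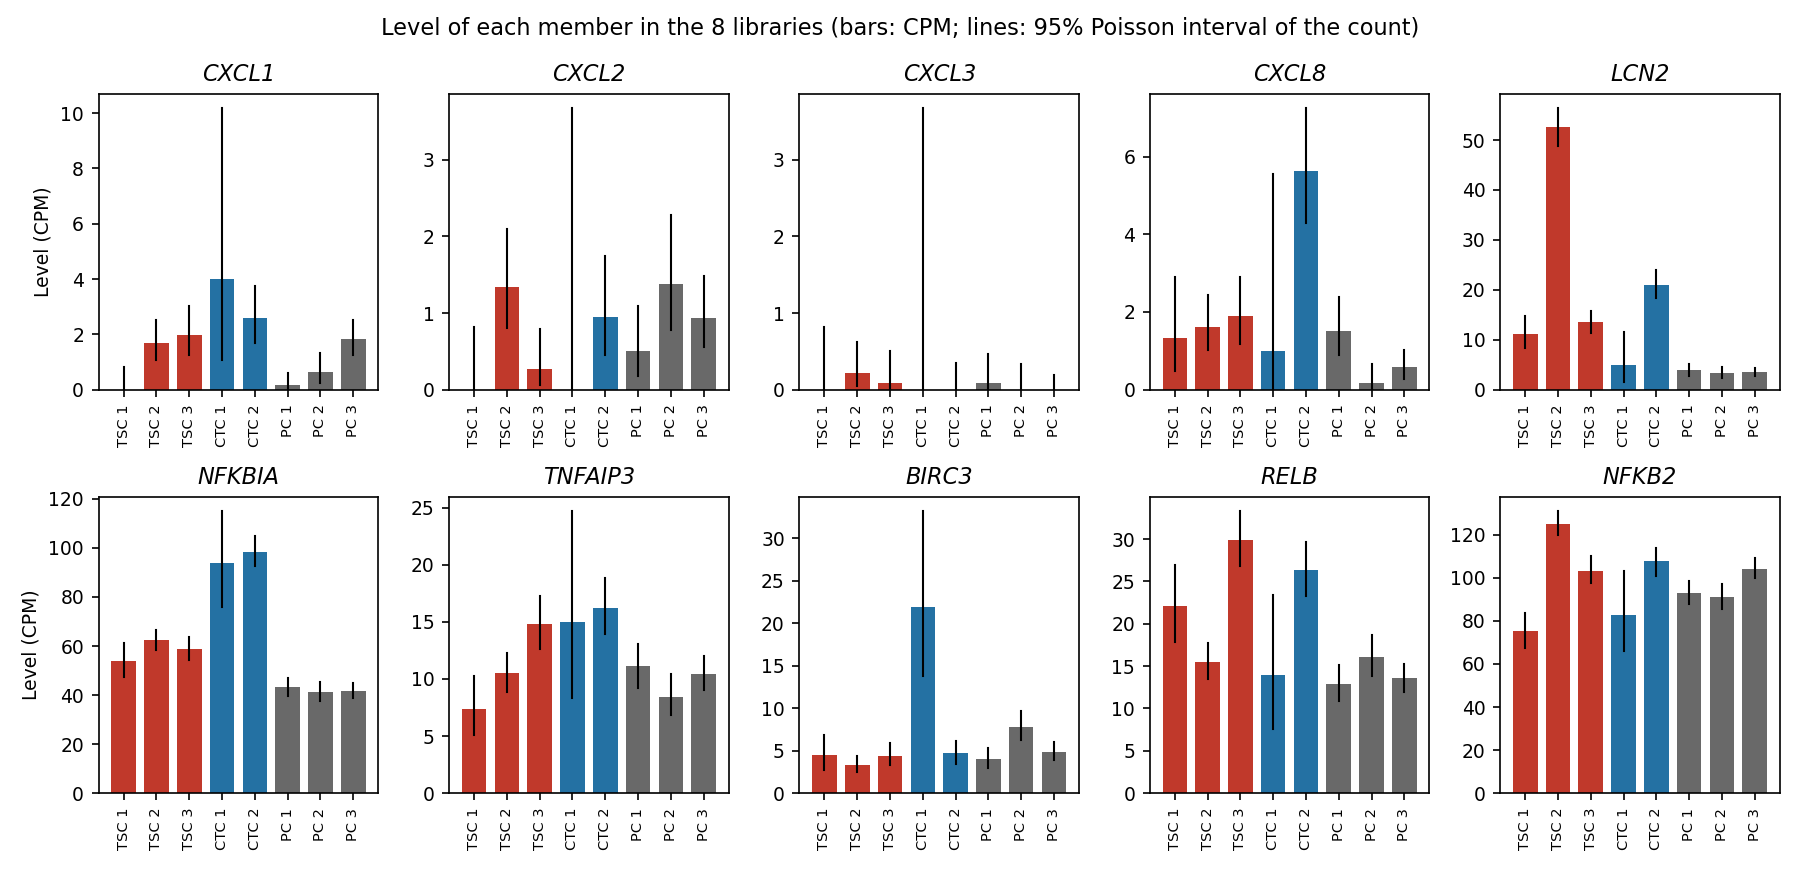
Level of each of the 10 genes in every library, in CPM on a linear axis of its own that starts at 0, with TSC left, CTC in the middle and PC right; lines are 95% Poisson intervals of the single count. LCN2 is above 11 CPM in each TSC library and under 4 CPM in each PC library, and NFKBIA is above 93 CPM in both CTC libraries and under 44 CPM in each PC library.

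**Figure D2:**
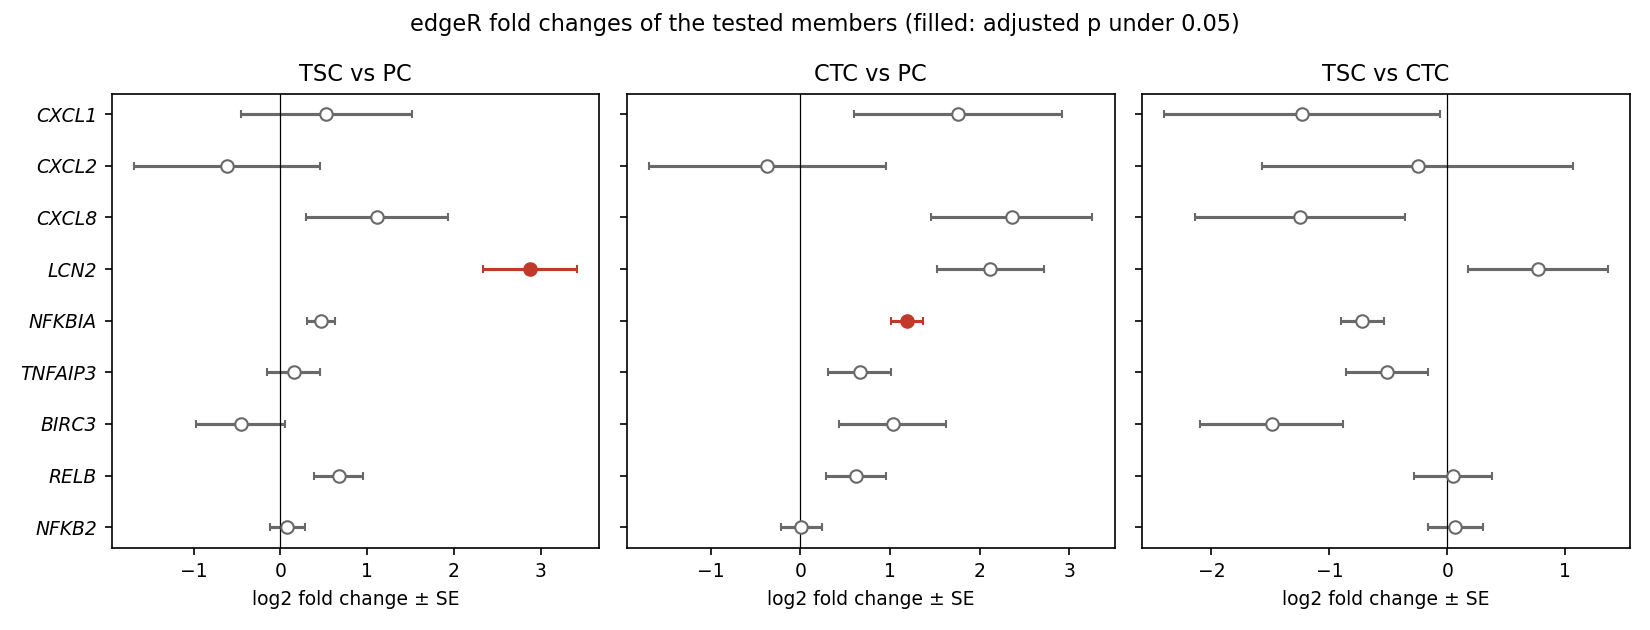
log2 fold change of the 9 tested members in each comparison, with its SE, from 1 edgeR fit of all 8 libraries; filled points have an adjusted p under 0.05. LCN2 in TSC against PC and NFKBIA in CTC against PC are the 2 filled points.

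Every gene of the set with a sequence in the RefSeq promoter table except CXCL8 has a match to the 10-letter NF-κB (κB) consensus in at least 1 of its promoters, and the matches are shown here because the set is defined by this factor. The table (GRCh38.p14) gives 250 bases before and 50 bases after each start site. Promoters were found for 9 of the 10 genes, RELB being the exception, in 11 windows because NFKB2 has 3. Both strands were searched, and a match was found in 9 of the 11 windows, where 3956 of 35116 promoters in the table (11.3%) hold one. Capitals mark the match, and each window is given 5′ to 3′ on the strand of its gene. The windows come from chr4:73869304-73869333 (CXCL1, plus strand), chr4:74099254-74099283 (CXCL2, minus strand), chr4:74038749-74038778 (CXCL3, minus strand), chr9:128149268-128149297 (LCN2, plus strand), chr14:35404811-35404840 (NFKBIA, minus strand), chr6:137867182-137867211 (TNFAIP3, plus strand), chr11:102317275-102317304 (BIRC3, plus strand) and chr10:102394461-102394490 (NFKB2, plus strand).
CXCL1: ctggaactccGGGAATTTCCctggcccggg
CXCL2: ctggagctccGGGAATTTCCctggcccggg
CXCL3: ctggagctccGGGAATTTCCctggcccggc
LCN2: cagcactccgGGAATGTCCCtcactctccc
NFKBIA: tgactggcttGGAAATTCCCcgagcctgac
TNFAIP3: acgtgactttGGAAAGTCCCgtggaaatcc
BIRC3: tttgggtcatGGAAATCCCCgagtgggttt
NFKB2: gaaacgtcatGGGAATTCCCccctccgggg
The 3 GRO chemokine genes, CXCL1, CXCL2 and CXCL3, share the same capitals at nearly the same distance from the start site, beginning 79, 78 and 79 bases upstream. In each of these 3, a second match on the other strand overlaps the first, shifted by 1 base. The match begins 175 bases upstream in LCN2 and 81 bases upstream in NFKBIA, on the strand opposite to the gene in both. A match describes letters only, and its absence from the CXCL8 window says nothing of the factor.

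The chemokine genes lie together on chromosome 4 and were measured on few reads, 0 to 59 in each library. CXCL1 (chr4:73869393-73871308 in GRCh38, plus strand), a neutrophil attractant first found as a growth factor of melanoma cells, had 0, 1.69 and 1.99 CPM in TSC, 3.99 and 2.58 CPM in CTC, and 0.168, 0.644 and 1.82 CPM in PC. Behind these stood 0, 24 and 22 reads in TSC, 4 and 27 in CTC, and 2, 7 and 35 in PC. Both CTC libraries were above every PC library and every TSC library, while TSC and PC overlapped, and the interval of CTC 1 ran from 1.09 to 10.2 CPM. No difference passed the test: the log2 fold change was 0.53 ± 0.99 (SE, edgeR adjusted p = 0.898) in TSC against PC and 1.76 ± 1.16 (edgeR adjusted p = 0.377) in CTC against PC.

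CXCL2 (chr4:74097040-74099195, minus strand), a paralogue with the same receptor, had 0, 1.34 and 0.271 CPM in TSC, 0 and 0.954 CPM in CTC, and 0.503, 1.38 and 0.935 CPM in PC. All groups overlapped. Its log2 fold change was -0.62 ± 1.07 in TSC against PC (edgeR adjusted p = 0.889) and -0.37 ± 1.32 in CTC against PC (edgeR adjusted p = 0.892). CXCL3 (chr4:74036589-74038689, minus strand) had 0, 3 and 1 reads in TSC, 0 reads in both CTC libraries, and 1, 0 and 0 reads in PC, and was not tested. The 95% intervals of the 0 reads in CTC reach 3.68 CPM in CTC 1 and 0.352 CPM in CTC 2, so a difference was not detectable at this depth.

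The 3 GRO genes have stretches of identical sequence, and counting could split their reads. Of the runs of 50 bases in their transcripts, 4.81% of CXCL1, 12.5% of CXCL2 and 6.01% of CXCL3 occur in another of the 3, so the value of each is uncertain, by an amount that these shares do not bound. Their summed level was 0, 3.25 and 2.35 CPM in TSC, 3.99 and 3.53 CPM in CTC, and 0.754, 2.02 and 2.75 CPM in PC. Summed, both CTC libraries were above the PC libraries and the TSC libraries, and TSC overlapped PC. The CTC 1 sum is the same 4 CXCL1 reads given above, so it is not a further observation. CTC 2, on 37 reads, lay close to TSC 2, on 46 reads.

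CXCL8 (chr4:73740569-73743716, plus strand), or interleukin-8, shares no run of 50 bases with another gene. It had 1.34, 1.62 and 1.90 CPM in TSC, 0.997 and 5.63 CPM in CTC, and 1.51, 0.184 and 0.571 CPM in PC. The highest value, in CTC 2, rests on 59 reads, and the CTC 1 value on 1 read with an interval of 0.0253 to 5.56 CPM, so CTC overlapped both other groups. The log2 fold change was 2.36 ± 0.90 in CTC against PC (edgeR adjusted p = 0.134) and 1.11 ± 0.82 in TSC against PC (edgeR adjusted p = 0.687). Neither passed the test, nor did TSC against CTC, at -1.25 ± 0.89 (edgeR adjusted p = 0.506).

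LCN2 (chr9:128149453-128153453, plus strand), the iron-scavenging lipocalin, was the only member called between TSC and PC. It had 11.1, 52.6 and 13.5 CPM in TSC, 4.99 and 21.0 CPM in CTC, and 3.85, 3.31 and 3.48 CPM in PC. Every TSC library and every CTC library was above every PC library, TSC and CTC overlapped, and the PC libraries lay within a narrow range. The mean was 25.7 ± 23.3 CPM in TSC (SD, n = 3), 13.0 ± 11.3 CPM in CTC (SD, n = 2) and 3.55 ± 0.278 CPM in PC (SD, n = 3). The spread within TSC came from TSC 2, which held 745 of the 944 reads of that group. LCN2 was 7.37-fold higher in TSC than in PC, a log2 fold change of 2.88 ± 0.54 (edgeR adjusted p = 0.0277).

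LCN2 was higher in TSC than in PC under all 13 alternatives, but the call depended on the libraries. Without TSC 2 the log2 fold change was 1.79 (edgeR adjusted p = 0.0600), without TSC 3 it was 3.18 (0.0509), and without PC 1, PC 2 or PC 3 it was 2.92, 2.82 and 2.86 (adjusted p 0.157, 0.168 and 0.139), so 5 of the 8 libraries end the call when left out. In CTC against PC the log2 fold change of LCN2 was 2.12 ± 0.60 and missed the threshold (edgeR adjusted p = 0.0611). That value rests on CTC 2: without it the log2 fold change was 0.48 (edgeR adjusted p = 0.873), while CTC 1 has 5 LCN2 reads and an interval of 1.62 to 11.6 CPM, which holds all PC values. DESeq2 called LCN2 in CTC against PC (adjusted p = 0.0197). TSC against CTC gave 0.77 ± 0.59 (edgeR adjusted p = 0.544).

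Because LCN2 is also a neutrophil gene, markers of leukocytes are given beside it. The neutrophil genes FCGR3B, CSF3R, S100A12, MPO, S100A8, S100A9, LTF and CAMP were listed at 0 in all 8 libraries. ITGAM, ITGB2, CYBB and LYZ, which neutrophils share with other myeloid cells, were each at 19.0 CPM or more in both CTC libraries and at 1.47 CPM or less in each TSC and PC library. The 22 leukocyte markers summed to 29.4, 52.1 and 27.0 CPM in TSC, against 14.7, 17.4 and 23.5 CPM in PC. Among TSC and PC the sum was highest in TSC 2, the library with the highest LCN2. The CTC libraries ran the other way. Their sums were 338 CPM in CTC 1 and 162 CPM in CTC 2, where LCN2 had 4.99 and 21.0 CPM. Most of the TSC sum was CD68, a lysosomal protein abundant in macrophages, at 26.5, 49.2 and 21.3 CPM in TSC and 10.8, 15.3 and 20.7 CPM in PC (log2 fold change 1.06 ± 0.32, edgeR adjusted p = 0.232). Of the 8 leukocyte markers tested, 0 were called between TSC and PC by edgeR or DESeq2, where edgeR called 0.505% of all genes tested. At so low a share, 0 of 8 does not show that leukocyte content was equal. An unadjusted edgeR p under 0.05 was seen for 2 of the 8, where 10.3% of all genes had one. The part of leukocytes in the LCN2 values was not tested.

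NFKBIA (chr14:35401513-35404749, minus strand), the gene of IκBα, was the best measured feedback gene and stood highest in CTC. It had 53.9, 62.3 and 58.8 CPM in TSC, 93.8 and 98.5 CPM in CTC, and 43.2, 41.4 and 41.8 CPM in PC. No 2 groups overlapped: CTC was highest, TSC lay in between, and PC was lowest. The means were 58.3 ± 4.22 CPM in TSC (SD, n = 3), 96.1 ± 3.36 CPM in CTC (SD, n = 2) and 42.1 ± 0.963 CPM in PC (SD, n = 3). NFKBIA was 2.29-fold higher in CTC than in PC, a log2 fold change of 1.19 ± 0.18 (edgeR adjusted p = 0.00404).

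The remaining NFKBIA differences were smaller. In TSC against PC the log2 fold change was 0.47 ± 0.16, which failed the correction (edgeR adjusted p = 0.327). In TSC against CTC it was -0.72 ± 0.18 (edgeR adjusted p = 0.0854), a difference that DESeq2 called (adjusted p = 0.0221). Without CTC 2 the CTC against PC value was 1.15 and no longer passed (edgeR adjusted p = 0.0783). The leukocyte sum was also highest in CTC, at 338 CPM in CTC 1 and 162 CPM in CTC 2. The order of the 2 CTC libraries differed between markers. CYBB, one of the 22 markers, had 88.8 and 32.2 CPM in CTC and 0.0920 to 1.42 CPM in PC. ITGAM had 33.9 and 41.2 CPM in CTC, and ITGB2 had 19.0 and 23.3 CPM. Of the 22 markers, 7 were listed at 0 in all libraries and 7 more were too low to test. The part of blood cells in NFKBIA was not tested.

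TNFAIP3 (chr6:137866349-137883312, plus strand), which encodes A20, overlaps an antisense gene on the other strand, and whether the counting used strand is not stated, so reads of the pair cannot be told apart. It had 7.35, 10.5 and 14.8 CPM in TSC, 15.0 and 16.2 CPM in CTC, and 11.1, 8.46 and 10.4 CPM in PC. The CTC libraries were above all others, and TSC overlapped PC, with its values on both sides of it. The log2 fold change was 0.66 ± 0.35 in CTC against PC (edgeR adjusted p = 0.268), 0.15 ± 0.30 in TSC against PC (0.906) and -0.51 ± 0.35 in TSC against CTC (0.488), and none passed the test.

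BIRC3 (chr11:102317484-102339403, plus strand) encodes cIAP2, a ubiquitin ligase of the TNF receptor complex. It had 4.46, 3.32 and 4.43 CPM in TSC, 21.9 and 4.67 CPM in CTC, and 4.02, 7.82 and 4.88 CPM in PC. A single library, CTC 1, stood high on 22 reads, with an interval of 13.8 to 33.2 CPM that lies above the values of all other libraries. CTC overlapped PC, and TSC lay just below CTC. The log2 fold change was 1.03 ± 0.60 in CTC against PC (edgeR adjusted p = 0.315), -0.46 ± 0.51 in TSC against PC (0.808) and -1.49 ± 0.61 in TSC against CTC (0.242). CTC 1 is also the library with the highest leukocyte sum, although the markers ITGAM and ITGB2 were higher in CTC 2. The part of leukocytes in the BIRC3 value of CTC 1 was not tested.

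The subunit genes belong to the alternative arm of the pathway, in which RelB pairs with the processed product of NFKB2. RELB (chr19:45001464-45038192, plus strand) had 22.1, 15.5 and 29.9 CPM in TSC, 14.0 and 26.3 CPM in CTC, and 12.9, 16.1 and 13.6 CPM in PC. TSC 1, TSC 3 and CTC 2 were above every PC library, but TSC 2 and CTC 1 lay within the PC range, so all groups overlapped. The log2 fold change was 0.67 ± 0.28 in TSC against PC, which failed the correction (edgeR adjusted p = 0.441), and 0.62 ± 0.33 in CTC against PC (adjusted p = 0.269).

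NFKB2 (chr10:102394110-102402529, plus strand), the gene of p100 and p52, had 75.1, 125 and 103 CPM in TSC, 82.8 and 108 CPM in CTC, and 93.1, 91.3 and 104 CPM in PC. All groups overlapped, and the TSC libraries alone spanned the range of the other 5. Its log2 fold change was 0.08 ± 0.20 in TSC against PC (edgeR adjusted p = 0.927), 0.01 ± 0.23 in CTC against PC (0.989) and 0.07 ± 0.23 in TSC against CTC (0.912).

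Per kilobase of exon, NFKB2 and NFKBIA had the highest levels of the set in each group and CXCL3 the lowest. In PC the mean level was 21.5 CPM per kb for NFKB2, 17.8 for NFKBIA and 4.67 for RELB, followed by 2.22 for LCN2 and 1.98 for TNFAIP3. BIRC3, CXCL1, CXCL2, CXCL8 and CXCL3 were at 0.741, 0.676, 0.626, 0.332 and 0.0126 CPM per kb in PC. In TSC, LCN2 reached 16.1 CPM per kb, above RELB at 7.42, and NFKBIA and NFKB2 were at 24.6 and 22.6. In CTC, NFKBIA led with 40.5 CPM per kb, ahead of NFKB2 at 21.2, LCN2 at 8.13 and RELB at 6.64. These are descriptions of means, and neighbours such as BIRC3, CXCL1 and CXCL2 in PC differ by less than their spread over libraries.

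**Figure D3:**
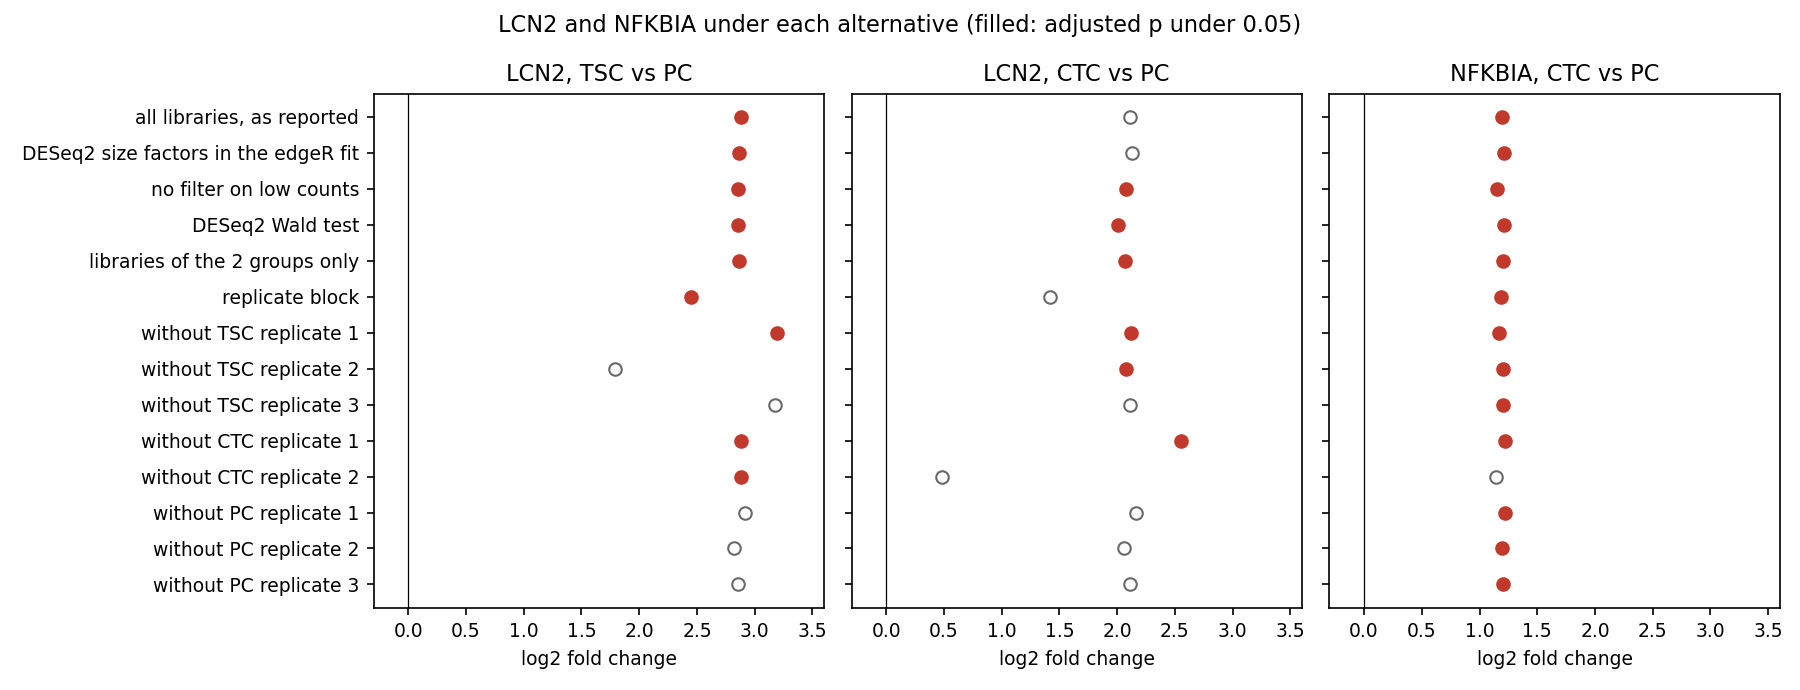
log2 fold change of LCN2 in TSC against PC (left) and in CTC against PC (middle) and of NFKBIA in CTC against PC (right) under the reported setting and 13 alternatives, filled where the adjusted p is under 0.05. NFKBIA stays between 1.15 and 1.22, whereas LCN2 covers 1.79 to 3.19 for TSC and 0.48 to 2.56 for CTC.

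By the closeness of their centred log2(CPM + 1) profiles over the 8 libraries, the genes most like LCN2 among 9438 candidates (mean log2 CPM from 3 up) were MGLL (root mean square difference 0.315), RCAN1 (0.506) and MAN1A1 (0.568), where the SD of LCN2 itself was 1.31. MGLL, the monoglyceride lipase gene, had 9.14, 33.0 and 10.5 CPM in TSC, 4.99 and 25.0 CPM in CTC, and 2.51, 4.14 and 3.74 CPM in PC, and like LCN2 it peaked in TSC 2 and CTC 2. The genes most like NFKBIA were MBNL1 (0.0900), MGAT2 (0.128) and ZNF639 (0.163), where the SD of NFKBIA was 0.489. MBNL1, a splicing regulator, had 248, 267 and 242 CPM in TSC, 397 and 460 CPM in CTC, and 216, 203 and 186 CPM in PC. These likenesses are descriptions over 8 libraries that share the group structure.

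Around the members, 148 further genes of the pathway in 7 lists were read in the same fit, but many had too few reads to test. Of those tested, 4 were called in at least 1 comparison: ACKR3, IL1RAP, PTGS2 and LYZ. Over all genes tested, the shares called were 0.505% in TSC against PC, 3.92% in CTC against PC and 0.898% in TSC against CTC. Calls in each list below are to be read beside these shares. Between TSC and PC, edgeR called 0 genes in each of the 7 lists. At an unadjusted p under 0.05 there were 5 of 38 tested upstream genes and 2 of 15 tested feedback inhibitors, with 0 in each of the other 5 lists, where 10.3% of all genes tested had one. These shares are near that of all genes. DESeq2 called 1, USP18 of the feedback inhibitor list.

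Ligands and receptors came first. Of 17 other CXC and NF-κB-inducible chemokines, 11 were listed at 0 in all libraries, including CXCL5, CXCL6, CXCL10 and CCL2, and the only one tested, CXCL16, had 50.4 to 66.0 CPM in TSC and was not called (log2 fold change 0.11 ± 0.22 in TSC against PC and -0.36 ± 0.26 in CTC against PC, edgeR adjusted p = 0.902 and 0.427). Of 12 chemokine receptors, CXCR1 was listed at 0 and CXCR2 had 3 reads in all. ACKR3, a scavenging receptor of CXCL12, had 0, 0.141 and 0 CPM in TSC, 3.99 and 9.06 CPM in CTC, and 0 reads in each PC library. Only the CTC libraries held more than 2 reads. The CTC 1 value lies near the 2.99 CPM that 3 reads correspond to there, so most of the CTC reads, and the fold below, rest on CTC 2. It was at least 121-fold higher in CTC than in PC, with the PC group set to 3 reads in all (edgeR adjusted p = 0.00752). It passed the filter on low counts through the CTC libraries, so its difference from PC is given as a description. CXCR4, the signalling receptor of CXCL12, was not called in either comparison with PC, with log2 fold changes of -1.18 ± 0.73 in TSC and 0.18 ± 0.92 in CTC (edgeR adjusted p = 0.617 and 0.925).

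Upstream, 38 of 40 receptors, adaptors and kinases were tested, RNF31 being listed at 0. IL1RAP, the accessory chain of the interleukin-1 receptor, was the single one called in CTC against PC, where 3.92% of all genes tested were called. It was lower in CTC. It had 3.34, 4.02 and 4.79 CPM in TSC, 0.997 and 0.668 CPM in CTC, and 5.28, 7.36 and 16.2 CPM in PC. The values of the groups did not overlap, but CTC held only 8 reads in all. The CTC 1 value is 1 read, under the 2.99 CPM of 3 reads, with a Poisson interval of 0.0253 to 5.56 CPM. That interval holds every TSC value and the PC 1 value, so the low CTC level rests mostly on CTC 2. The log2 fold change was -3.73 ± 0.73 in CTC against PC (edgeR adjusted p = 0.0149). It lost the call without CTC 2 (-3.27, edgeR adjusted p = 0.294) and without PC 3 (-3.09, edgeR adjusted p = 0.0702). RIPK2, the kinase that relays NOD signals, had a log2 fold change of 0.84 ± 0.23 in CTC against PC and IL17RA, an interleukin-17 receptor chain, one of -0.96 ± 0.27. Neither passed (edgeR adjusted p = 0.0555 and 0.0590), while DESeq2 called both (adjusted p = 0.0296 and 0.0271) and also CHUK. The list's median log2 fold change was 0.00 in TSC against PC and -0.10 in CTC against PC, close to that of all genes.

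None of the 7 tested genes among the other subunits and IκB proteins was called by edgeR or DESeq2 in any comparison. At an unadjusted p under 0.05 there were 2 of 7 in CTC against PC, near the 23.6% of all genes, and 0 of 7 in TSC against PC and in TSC against CTC. NFKB1, the gene of p50 and a partner of the classical arm, had a log2 fold change of 0.64 ± 0.20 in CTC against PC (edgeR adjusted p = 0.0833) and NFKBIZ, an atypical nuclear IκB, one of 1.26 ± 0.51 (0.154). Among 15 tested feedback inhibitors, edgeR called 0 in each comparison. At an unadjusted p under 0.05 there were 3 of 15 in CTC against PC (23.6% of all genes), where DESeq2 called ITCH and TNIP1, and 4 of 15 in TSC against CTC (16.7% of all genes), where DESeq2 called 0. USP18 had 6.46, 5.43 and 8.32 CPM in TSC, against 14.6, 15.5 and 14.2 CPM in PC, without overlap. Its log2 fold change in TSC against PC was -1.13 ± 0.28 (edgeR adjusted p = 0.124). The median of this list was -0.13 in TSC against PC and 0.26 in CTC against PC.

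Among 36 other NF-κB targets, 22 were tested and TNF and IL6 were listed at 0. PTGS2, the inducible cyclooxygenase COX-2, had 3.34, 3.53 and 3.71 CPM in TSC and 0 reads in both CTC libraries. In PC it had 1.68, 0.920 and 2.28 CPM, 74 reads in all. It was at least 6.74-fold lower in CTC than in PC (edgeR adjusted p = 0.0438) and at least 13.7-fold higher in TSC than in CTC (edgeR adjusted p = 0.0430), with the CTC group set to 3 reads in all. Left out one at a time, 5 of the 8 libraries ended the CTC against PC call, namely TSC 3, CTC 2, PC 1, PC 2 and PC 3 (edgeR adjusted p 0.0813, 0.426, 0.0959, 0.0679 and 0.125). It was also lost with the replicate number as a block (0.121) and with the libraries of the 2 groups only (0.0600). TNFAIP2, a TNF-inducible gene, had a log2 fold change of -0.95 ± 0.25 in CTC against PC, just outside the threshold (edgeR adjusted p = 0.0504; DESeq2 adjusted p = 0.0186), and ICAM1, an adhesion molecule, one of -1.50 ± 0.53 (0.108). The median of the tested targets was -0.01 in TSC against PC and -0.05 in CTC against PC.

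Among 19 lipocalin receptors, partners and epithelial antimicrobial genes, 4 were tested. The LCN2 receptor gene SLC22A17 had 1.56, 2.89 and 2.80 CPM in TSC, 0 and 0.858 CPM in CTC, and 3.43, 2.58 and 3.84 CPM in PC, with the CTC libraries lowest. It was not called in CTC against PC (log2 fold change -2.22 ± 0.83, edgeR adjusted p = 0.128) nor in TSC against PC (-0.41 ± 0.57, 0.859). LYZ, or lysozyme, which myeloid cells also make, was higher in CTC, with 0.668, 0.423 and 0.633 CPM in TSC, 94.8 and 23.4 CPM in CTC, and 0.335, 1.47 and 0.519 CPM in PC (log2 fold change 6.22 ± 0.64 in CTC against PC, edgeR adjusted p = 0.000112). LYZ passed the filter on low counts through the CTC libraries, so its difference from PC is given as a description. Like the leukocyte sum it was higher in CTC 1 than in CTC 2, whereas ITGAM and ITGB2 were higher in CTC 2. The part of leukocytes in LYZ was not tested.

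**Figure D4:**
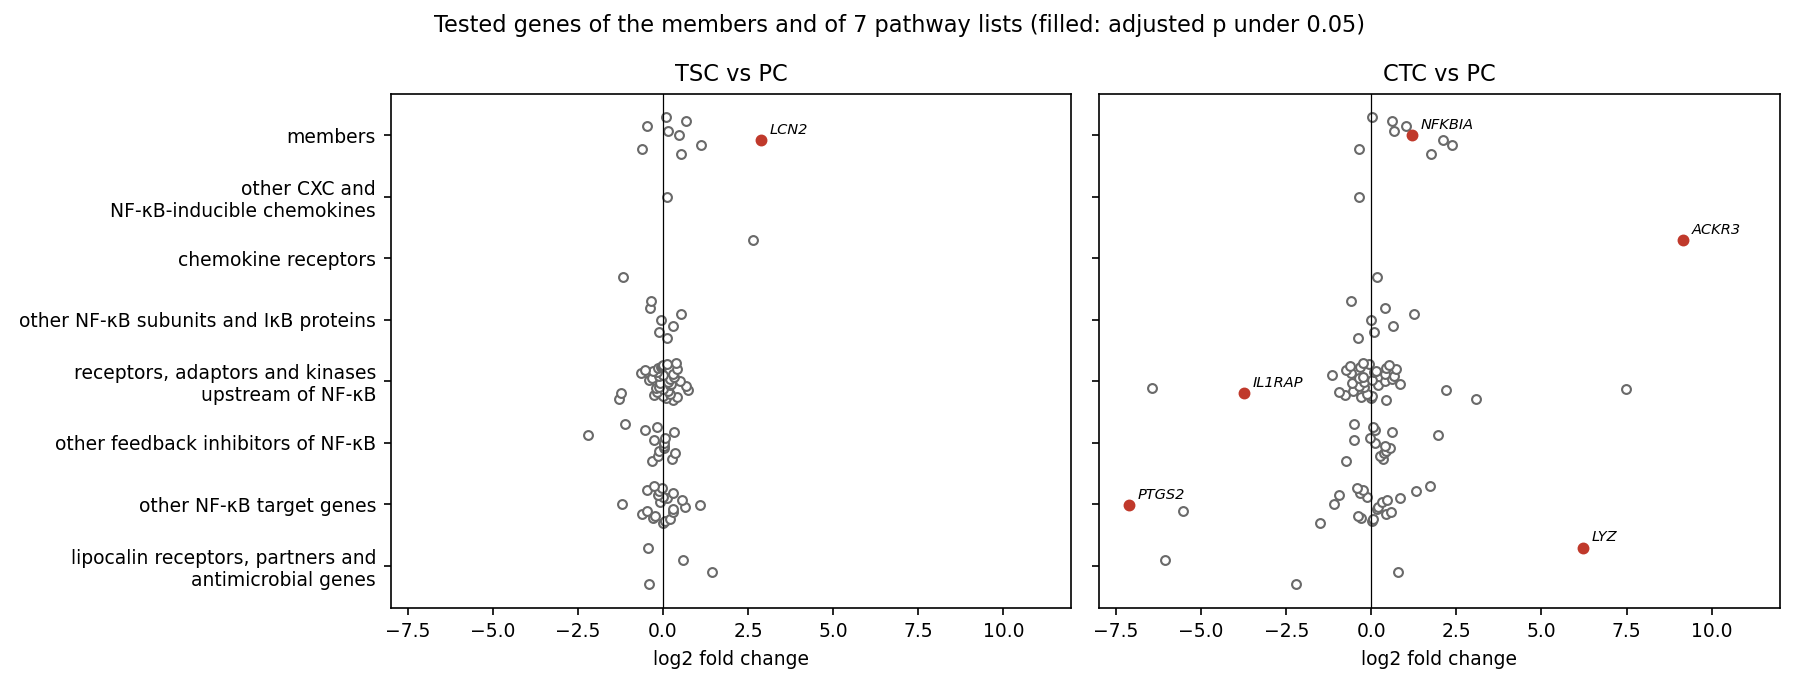
log2 fold change of every tested gene of the 10 members and of 7 pathway lists, TSC against PC left and CTC against PC right; filled points have an edgeR adjusted p under 0.05. Genes without a read in a group, such as PTGS2 in CTC and ACKR3 in PC, are drawn at their fitted value, which depends on the prior count and is not a measured fold.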

How the data were processed

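Counts per gene were analysed as deposited by the authors: whole numbers, not normalized. RNA had been depleted of ribosomal RNA, per the labels' protocols, and STAR 2.5.3a, featureCounts 1.5.3 and hg38 are named, per the submitters' processing notes. For the annotation, strand setting, treatment of multi-mapping reads and removal of host reads, the labels and notes give nothing. Libraries were grouped by title. All 8 entered 1 fit in edgeR 4.0.16 (R 4.3.3; filterByExpr by group, TMM, glmQLFit, glmQLFTest), and 14255 genes were tested in 3 comparisons. The SE is the size of the log2 fold change divided by the square root of F. Scripts were tested on simulated data. Lengths are exon unions of GENCODE v29. Of 28 library pairs, 0 differed by less than sampling noise.

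The 10 members and the 14 lists beside them were chosen with earlier results of these data known. Of each pathway list, the genes called (up to 6 a comparison) and up to 2 uncalled ones with the smallest adjusted p could be named. Genes listed at 0, CXCR2, EPCAM, CD68, CYBB, ITGAM and ITGB2 were chosen after their values were seen, and some genes that the rule gives are left out. A listed 0 does not show that a gene is silent. Alternatives were DESeq2 size factors, no filter, the Wald test of DESeq2 1.42.0, the libraries of 2 groups only, the replicate number as a block, and each library left out.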

Additional observations from a re-analysis of the deposited data

Results flagged for a closer look

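In 3 pathway genes the effect against PC differed between TSC and CTC by the edgeR test of TSC against CTC. For ACKR3 the adjusted p was 0.0335, with 2 reads in TSC, 99 in CTC and 0 in PC, a TSC to CTC ratio of 0.00781 (95% counting interval 0.000933 to 0.029). ACKR3 was fitted in 12 of the 13 alternatives and called in 9. The call was lost without TSC 2 (adjusted p = 0.0584) and without TSC 3 (adjusted p = 0.148), and with the replicate number as a block (adjusted p = 0.163). Most of the CTC reads came from CTC 2, as CTC 1 had 3.99 CPM, near the 2.99 CPM of 3 reads. For PTGS2 the adjusted p was 0.0430, with 106 reads in TSC, 0 in CTC and 74 in PC. As 0 reads in CTC 1 have a 95% interval up to 3.68 CPM, the low CTC level rests mostly on CTC 2. The call was lost without TSC 2, TSC 3, CTC 2, PC 1, PC 2 or PC 3 (adjusted p 0.0793, 0.148, 0.308, 0.0801, 0.0665 and 0.0636), with the block (0.126) and with the libraries of the 2 groups only (0.101). ACKR3 and LYZ passed the filter on low counts through the CTC libraries, so their differences are given as descriptions. For LYZ the adjusted p was 0.000143, with a log2 fold change of -6.64 ± 0.68, and the call held in 13 of 13 alternatives. No group has the 4 libraries that a check for a single outlying library needs.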

How the results depend on the processing

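Of the 351 values of the 9 tested members under 13 alternatives, 338 kept their side of the threshold, 6 lost it, 7 gained it and 0 reversed, where a change of sign was counted only for a called value. LCN2 in TSC against PC was called in 8 of 13 alternatives, LCN2 in CTC against PC in 6 of 13 and NFKBIA in CTC against PC in 12 of 13. Of the 1002 values of 26 named pathway genes, 948 kept their side, 20 lost it, 34 gained it and 0 reversed. Members called numbered 2 in CTC against PC with no filter, with DESeq2 and with the libraries of 2 groups only (LCN2 and NFKBIA), and 1 in TSC against CTC with DESeq2. With each library left out in turn they numbered 0 to 1 in TSC against PC, 0 to 2 in CTC against PC and 0 to 0 in TSC against CTC. Genes called in TSC against PC numbered 355 with no filter, 193 with DESeq2 and 128 with 2 groups only, against 72 as reported, and 10 to 153 with a library left out. In CTC against PC they numbered 1535, 1132 and 1409 under these settings, against 559 as reported, and 35 (without CTC 2) to 1575. In TSC against CTC they numbered 728, 386 and 82, against 128 as reported, and 36 to 696. The cause was not tested. With the replicate number as a block, genes called numbered 67, 261 and 61 in the same order, and LCN2 in CTC against PC had a log2 fold change of 1.42 (adjusted p = 0.188). Same-numbered libraries correlated from -0.200 to 0.107 in their deviations from the group means (7 pairs), so the numbers are not taken to pair libraries. The depth of CTC 1 limits each CTC value, and the chemokine genes, with 0 to 59 reads a library, are the least well measured.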
